A study of Rattus norvegicus with 10 samples.

Results

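Erbb3 encodes ErbB3 (HER3), a receptor for neuregulins, and it was followed here as 1 of the 32622 rat genes counted in cultured myoblasts from the soleus muscle of unloaded rats. The gene was chosen by its own measured values, because the study had called it different from Control after 1 and after 7 days of unloading. Its levels and fold changes are therefore given as a description, without a test. The rats were 3 months old, male and of the Wistar strain, and their hindlimbs were unloaded by hindlimb suspension for 1, 3, 7 or 14 days (HS1, HS3, HS7 and HS14), while Control rats were not suspended. Cells from the digested soleus were cultured in serum-rich medium for 72 h, pre-plated to separate them from fibro-adipogenic progenitors and grown for a further 24 h, in the same way in all 5 groups. PolyA RNA of the whole culture was then sequenced, with 2 libraries per group. Whether paired libraries stem from separate rats or separate dishes is not given in the sources used here, so the p-values below measure only the spread between these samples, which may be technical.

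ErbB3 binds neuregulins but has an impaired kinase of its own, so it signals as a partner of ErbB2 and other family members and recruits PI3K through its phosphorylated tail. In muscle, neuregulin signalling is known for its part in the formation of muscle spindles, where it induces the transcription factor Egr3, and for its action on genes of the neuromuscular synapse. ErbB3 is also a well known receptor of Schwann cells, the glia of peripheral nerve.

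The total count lay between 20200972 and 28175200 per library, and 15602 to 15960 genes had at least 1 count. Taking 3 counts as the smallest detectable level, the floor was 0.106 to 0.149 CPM (counts in a library scaled to 1000000). Among gene counts of 1 to 20, between 69.4% and 71.97% were even numbers in each library, and how read pairs were counted is not given in the sources used here. If both mates of a pair were counted, the counts below and the floor stand for fewer RNA fragments than their number, which was not tested. Levels are given as CPM normalised over all 10 libraries, and fold changes as log2 values with a standard error (SE). These levels are not divided by gene length, so they compare libraries and not genes.

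Erbb3 was lowest after 1 day of suspension, had passed the Control level by day 3, peaked on day 7 and was back near Control on day 14. The Control libraries held 288 and 291 Erbb3 counts, or 11.4 and 11.04 CPM. The HS1 libraries held 90 and 78 counts, or 3.68 and 3.40 CPM. Both HS1 values were below every other library of the series. The HS3 libraries reached 22.5 and 20.8 CPM from 443 and 524 counts. The HS7 libraries reached 73.5 and 50.4 CPM from 1814 and 1278 counts, above every other library and further apart than any other pair. The HS14 libraries, with 370 and 250 counts, were at 12.8 and 10.52 CPM, on either side of both Control values. From low to high, the group means were 3.54 ± 0.199 CPM for HS1, 11.2 ± 0.247 for Control, 11.7 ± 1.602 for HS14, 21.7 ± 1.19 for HS3 and 62.0 ± 16.3 for HS7 (SD, n = 2 each). In that order, Control and HS14 overlapped and did not differ beyond their spread, and no other neighbouring groups overlapped. Because whole cultures were sequenced, fewer cells of a type and less RNA per cell cannot be told apart.

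**Figure D1:**
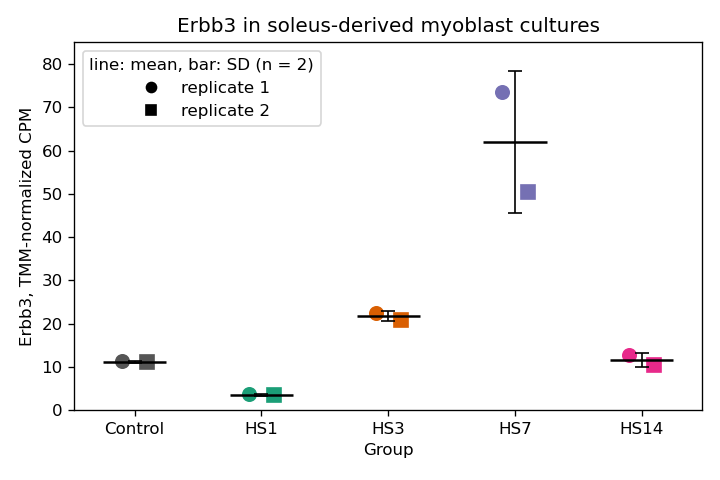
Erbb3 level in each of the 10 libraries, in normalised CPM on a linear axis, by group; circles and squares are replicates 1 and 2, lines are group means and bars the SD (n = 2). The HS1 libraries sit at 3.40 and 3.68 CPM, the HS7 libraries at 50.4 and 73.5 CPM, and the Control and HS14 libraries overlap.

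Against Control, the log2 fold change of Erbb3 was -1.66 (SE 0.17) in HS1, a level 3.16-fold lower. It was the 288th lowest fold change of the 13013 genes tested there. In HS3 Erbb3 was 0.94 (SE 0.12) above Control on the log2 scale, or 1.92-fold, the 527th highest of 13133 genes. In HS7 it was 2.47 (SE 0.21) above Control, or 5.54-fold, the 76th highest of 13164 genes. The HS14 value was 0.06 (SE 0.14), the 5745th highest of 13160 genes. Only the HS1 and HS7 values were beyond the log2 threshold of 1.5 used in the study.

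From one time point to the next, the widest step was between days 1 and 3, where Erbb3 was 2.62 (SE 0.17) higher on the log2 scale in HS3, or 6.13-fold. From HS3 to HS7 it was a further 1.499 (SE 0.16) higher, or 2.83-fold. The HS7 and HS1 libraries thus differed by 4.11 (SE 0.22) on the log2 scale, or 17.3-fold, the 36th highest of 13077 genes tested between these groups. HS14 was below HS7 by a log2 change of -2.40 (SE 0.23), a 5.26-fold lower level and the 139th lowest of 13109 genes. It was also below HS3, at -0.91 (SE 0.14), and above HS1, at 1.70 (SE 0.18).

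**Figure D2:**
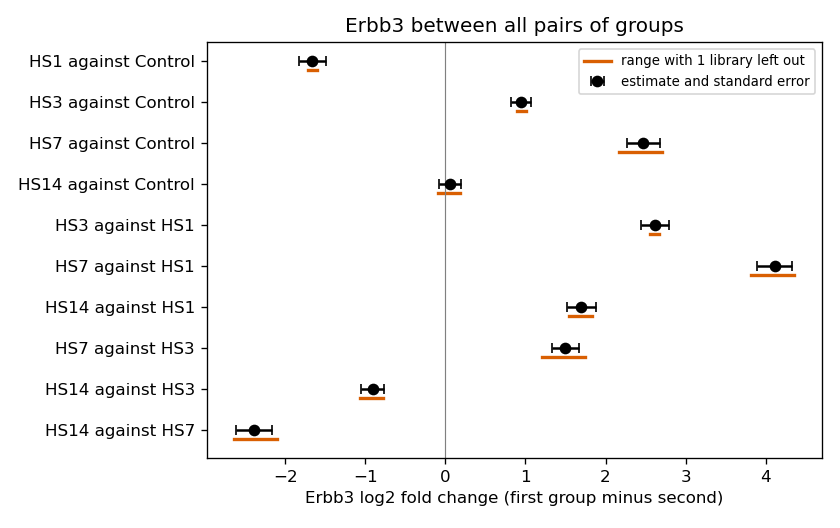
Erbb3 log2 fold change for the 10 pairs of groups (first group minus second), with black bars of 1 SE derived from the edgeR F statistic and orange lines for the range with 1 library left out. The values run from -2.40 for HS14 against HS7 to 4.11 for HS7 against HS1, and the 0.06 of HS14 against Control lies within 1 SE of 0.

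The gap between the HS7 libraries was shared by muscle differentiation genes, but not by these alone. Erbb3 was 0.54 higher in HS7 replicate 1 than in replicate 2 on the log2 scale. All 9 myogenic marker genes measured were also higher in replicate 1, by a median of 0.82 (0.40 to 1.11), against 0.008 over all genes. Some genes of other kinds were higher in replicate 1 too, such as Nrg1 (5.71 against 4.07 CPM) and Dcn (305 against 235 CPM). Others were lower there, such as Lgi4 (14.3 against 16.4 CPM) and Vwf (1.26 against 1.89 CPM). In the other groups the Erbb3 gap was 0.04 to 0.28 and the myogenic median between -0.09 and 0.11. With either HS7 library left out, the HS7 against Control value of Erbb3 lay between 2.17 and 2.71.

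The rest of the ErbB pathway could be read only in part. Gene symbols came from the study's table of genes it had called at some time point, which gave 10 pathway genes beside Erbb3: the neuregulin Nrg1, the EGF-type ligands Tgfa, Ereg and Areg, the adaptor Shc4, the response genes Egr3 and Fosl1, and the synaptic genes Chrnd, Lrp4 and Ache. The other ErbB receptors, Egfr, Erbb2 and Erbb4, were not analysed here. Since these genes were listed for having changed, their counts are not independent evidence of a change or of its direction. Adjusted p-values below were obtained with edgeR (quasi-likelihood test) except where DESeq2 is named. The edgeR values were adjusted by Benjamini and Hochberg's method across every gene tested, and a gene was called at an adjusted p under 0.01. DESeq2 values come from its own test and its own filter of genes.

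In HS1, 1 of the 10 genes was called higher and 3 lower, against 6.38% and 10.5% of all genes tested. None of them was beyond the log2 threshold of 1.5, which 0.0922% of all genes passed upward and 2.18% downward. In HS3, 4 were called higher and 1 lower, against 7.00% and 4.51% of all genes, and 1 of them was higher beyond the fold threshold, against 0.777% upward and 0.350% downward. In HS7, 3 were called higher and 5 lower, against 16.6% and 16.2%, and 3 and 4 of these were beyond the fold threshold, against 1.95% and 1.63%. In HS14, 6 were called lower and 0 higher, against 17.0% and 15.8%, and 3 of the 6 were beyond the fold threshold, against 2.01% downward and 0.524% upward. DESeq2 also called 0 higher in HS14, as did an unadjusted edgeR p under 0.05. The median log2 fold change of the 10 genes, in time order, was -0.84, 0.59, -1.52 and -1.09, while that of all genes tested stayed between -0.01 and 0.01. The synaptic genes, listed here with the pathway, made up 3 of the 4 called higher in HS3 and 2 of the 3 in HS7. In HS7 the changes of the 10 genes ran from -3.14 to 2.09, so the median is not a shift shared by them.

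Nrg1, the gene of the main neuregulin ligand of ErbB3, was low in HS1 and high in HS3, as Erbb3 was, but low on both later days. Its libraries were at 13.1 and 13.2 CPM in Control, 7.68 and 6.71 after 1 day, 22.7 and 19.7 after 3 days, 5.71 and 4.07 after 7 days, and 2.07 and 2.15 after 14 days. No HS group overlapped Control. Nrg1 fell by 0.87 (SE 0.14) on the log2 scale in HS1 (edgeR adjusted p = 8.55e-05) and rose by 0.68 (SE 0.13) in HS3 (edgeR adjusted p = 0.00169). It fell by 1.43 (SE 0.18) in HS7 (edgeR adjusted p = 8.33e-06) and by 2.65 (SE 0.18) in HS14 (edgeR adjusted p = 3.69e-15). Set against Nrg1 in the same library, and relative to Control, Erbb3 was -0.78 in HS1 and 0.26 in HS3 on the log2 scale. It was 3.90 and 3.84 for the cultures of day 7 and 2.81 and 2.48 for those of day 14, so receptor and ligand transcripts had parted on both late days. The receptor's part of this difference was chosen on its values and it was not tested.

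Of the EGF-type ligands, which bind the EGF receptor rather than ErbB3, Tgfa and Ereg fell on both late days. Tgfa, which encodes TGF-alpha, was at 9.09 and 10.96 CPM in Control, 10.3 and 10.4 after 1 day, 10.6 and 12.9 after 3 days, 2.07 and 1.66 after 7 days, and 4.08 and 4.55 after 14 days. It fell by 2.42 (SE 0.22) on the log2 scale in HS7 (edgeR adjusted p = 3.13e-07) and had a log2 change of -1.23 (SE 0.18) in HS14 (edgeR adjusted p = 3.12e-07). Ereg, the epiregulin gene, was at 4.11 and 3.03 CPM in Control. In HS7 it was at 0.405 and 0.395 CPM, from only 10 counts in each library, with a log2 change of -3.14 (SE 0.39, edgeR adjusted p = 9.30e-06). In HS14 it was at 1.11 and 0.505 CPM, a log2 change of -2.11 (SE 0.35; edgeR adjusted p = 4.56e-06). Neither gene passed the test in HS1 or HS3, where the 4 log2 fold changes lay between -0.07 and 0.23. Areg, the amphiregulin gene, was at 1.98 and 0.834 CPM in Control and at 0.277 and 0.253 CPM in HS14, from only 8 and 6 counts. It fell by 2.38 (SE 0.57) there (edgeR adjusted p = 0.000680). That HS14 call was lost without Control replicate 1 (edgeR adjusted p = 0.117) and was just missed with DESeq2 (adjusted p = 0.0103). In HS7 Areg was at 0.486 and 0.395 CPM, with a log2 change of -1.66 (SE 0.54) that missed the threshold (edgeR adjusted p = 0.0193) and passed it without the expression filter (edgeR adjusted p = 0.00602).

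Egr3, the neuregulin-induced transcription factor of muscle spindles, had its group means in the same order as Erbb3. Its libraries were at 2.93 and 2.77 CPM in Control, 0.899 and 1.70 after 1 day, 5.28 and 3.42 after 3 days, 14.3 and 9.95 after 7 days, and 4.18 and 2.82 after 14 days. It rose by 2.09 (SE 0.21) in HS7 (edgeR adjusted p = 9.83e-07). The HS1 value of -1.14 (SE 0.34) missed the threshold (edgeR adjusted p = 0.0166), as did the HS3 value of 0.59 (SE 0.27; edgeR adjusted p = 0.136). Leaving out HS1 replicate 2 or HS3 replicate 2 brought those values past it, at edgeR adjusted p = 0.00150 and 0.00947, and the HS1 value also passed without the expression filter (edgeR adjusted p = 0.00402). Within libraries and relative to Control, the group means of Erbb3 minus Egr3 lay between -0.49 and 0.40 on the log2 scale. Single libraries were further apart, at -0.01 and -0.98 in HS1 and at 0.13 and 0.63 in HS3.

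Fosl1, which encodes the AP-1 subunit Fra-1 and responds to growth factor signalling, had its group means in the reverse order. It was at 69.5 and 69.7 CPM in Control, 93.7 and 82.6 after 1 day, 45.5 and 48.5 after 3 days, 22.9 and 21.8 after 7 days, and 54.9 and 59.6 after 14 days, with no overlap of any HS group with Control. It rose by 0.34 (SE 0.07) in HS1 (edgeR adjusted p = 0.000765) and fell by 0.57 (SE 0.08) in HS3 (edgeR adjusted p = 0.000210) and by 1.64 (SE 0.08) in HS7 (edgeR adjusted p = 3.67e-10). In HS14 the fall was 0.29 (SE 0.07; edgeR adjusted p = 0.000614), and it was not called without HS14 replicate 1 (edgeR adjusted p = 0.0159). Shc4, an adaptor of receptor tyrosine kinases, was between 0.513 and 2.09 CPM in all libraries and was called lower in HS7, at -1.61 (SE 0.42; edgeR adjusted p = 0.00490), and in HS14, at -1.35 (SE 0.40; edgeR adjusted p = 0.00526). Both Shc4 calls were lost with DESeq2 (adjusted p = 0.0248 and 0.0484). The HS7 call was also lost without Control replicate 1, Control replicate 2 or HS7 replicate 2 (edgeR adjusted p of 0.0249 to 0.0672), and the HS14 call without any one of its 4 libraries (edgeR adjusted p of 0.0139 to 0.0643).

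**Figure D3:**
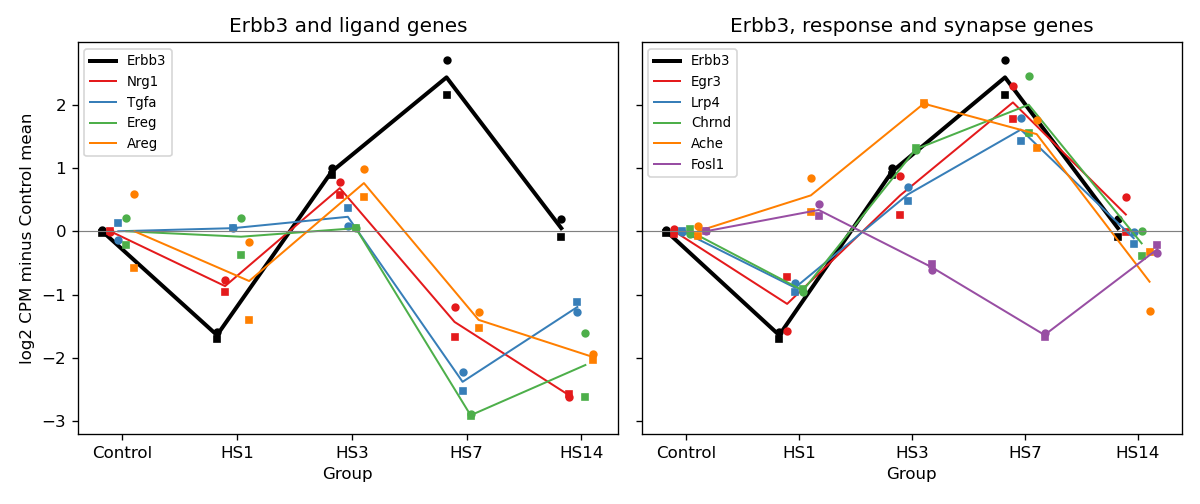
Log2 CPM minus the Control mean, by group, for Erbb3 (thick black line) with ligand genes on the left and with response and synapse genes on the right; lines join group means, and circles and squares are replicates 1 and 2. Nrg1, Tgfa, Ereg and Areg are below 0 in both HS7 libraries while Erbb3 is at its highest, and Fosl1 is at its lowest there, with 22.9 and 21.8 CPM.

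The synaptic genes included the gene with the highest Pearson's r with Erbb3 of all genes compared. By Spearman's rho that gene was not the highest. Lrp4, the agrin receptor of the muscle side of the synapse, was at 91.2 and 91.9 CPM in Control, 51.8 and 46.9 after 1 day, 148 and 127 after 3 days, 317 and 246 after 7 days, and 90.6 and 79.5 after 14 days. Like Erbb3, it was below Control in both HS1 libraries and highest in both HS7 libraries. It fell by 0.89 (SE 0.07) in HS1 (edgeR adjusted p = 1.42e-09), and rose by 0.58 (SE 0.08) in HS3 (edgeR adjusted p = 0.000244) and by 1.62 (SE 0.13) in HS7 (edgeR adjusted p = 0.000257). The HS14 value was -0.11 (SE 0.06; edgeR adjusted p = 0.168). Relative to Lrp4 in the same library and to Control, Erbb3 was -0.75 in HS1, 0.36 in HS3 and 0.83 in HS7 on the log2 scale, so its swing was the wider of the pair.

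Chrnd, the delta subunit of the muscle acetylcholine receptor, was at 14.9 and 15.7 CPM in Control, 7.85 and 8.06 after 1 day, 37.2 and 38.2 after 3 days, 83.8 and 45.1 after 7 days, and 15.3 and 11.7 after 14 days. It fell by 0.94 (SE 0.13) in HS1 (edgeR adjusted p = 1.19e-05) and rose by 1.30 (SE 0.11) in HS3 (edgeR adjusted p = 1.89e-06). Both calls were lost when all 10 libraries were fitted together (edgeR adjusted p = 0.114 and 0.0243). The HS7 value of 2.08 (SE 0.45) missed the threshold (edgeR adjusted p = 0.0688), and it passed with DESeq2 (adjusted p = 1.13e-05), with all 10 libraries in the fit (edgeR adjusted p = 0.00153) and with either HS7 library left out, at log2 values of 1.56 and 2.45. Ache, the acetylcholinesterase gene, rose from 0.474 and 0.417 CPM in Control by 2.18 (SE 0.43) to 2.03 and 2.07 CPM in HS3 (edgeR adjusted p = 0.00269). Its rise of 1.71 (SE 0.48) in HS7 (edgeR adjusted p = 0.00839) was lost with DESeq2 (adjusted p = 0.0441) and without Control replicate 1, Control replicate 2 or HS7 replicate 1 (edgeR adjusted p of 0.0561 to 0.0841).

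The window around the start of Chrnd is shown because the N-box, the letters TTCCGG, is a known element of synaptic acetylcholine receptor promoters through which neuregulin acts. It is RefSeq sequence of the GRCr8 build, chr9:95310066-95310365 on the plus strand, from 250 bases before to 50 bases after the start, with the N-box and a myogenic E-box (CANNTG) in capitals.
Chrnd: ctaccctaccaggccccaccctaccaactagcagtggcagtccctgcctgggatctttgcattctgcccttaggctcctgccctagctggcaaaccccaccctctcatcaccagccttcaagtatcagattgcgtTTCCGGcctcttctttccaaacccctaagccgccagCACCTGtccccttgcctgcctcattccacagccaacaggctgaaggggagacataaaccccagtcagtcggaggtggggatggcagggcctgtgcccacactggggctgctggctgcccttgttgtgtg
The N-box began at position -115 and the E-box match, CACCTG, at -79, and they did not overlap. Searched on both strands, 15.0% of the 33469 rat windows of this length held the N-box letters and 72.1% an E-box. A match describes the letters and is not evidence of a bound site.

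The genes most like Erbb3 were ranked by Pearson's r of log2 CPM over the 10 libraries, which share their depth and their 5 groups, so r is a description. Among all 13690 genes compared, 352 (2.57%) had r above 0.9 and 290 (2.12%) below -0.9, with a median r of 0.03. Genes with a symbol, which the study had called at some time point, had a median r of 0.46. Of these 768 genes, Lrp4 had the highest r at 0.993, the first of all genes compared. It was followed by Ccdc141 (0.990), Adgre5 (0.989), which encodes the adhesion receptor CD97, and Gxylt2 (0.988), a xylosyltransferase that modifies Notch. Col5a3, a collagen V chain, and Prkag3, the muscle AMPK gamma subunit, both had r of 0.987. These 6 genes kept r of 0.972 to 0.986 when the HS7 libraries were left out, and their Spearman's rho was 0.927 to 0.976. Their ranking was not stable, since most of them were not among the 6 highest by Spearman's rho or without the HS7 libraries.

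The lowest values among genes with a symbol were those of Mcpt10 (-0.958), a mast cell protease gene, Fosl1 (-0.953) and Hpse (-0.941), the heparanase gene. Mcpt10 was between 0.158 and 1.63 CPM and has close relatives in the genome between which reads may be split, so its counts are uncertain. The 9 myogenic genes had r between 0.840 (Acta1) and 0.972 (Mymk), with 0.970 for Myog and 0.959 for Mymx, and without the HS7 libraries between 0.521 (Acta1) and 0.940 (Mymk). Egr3 and Chrnd had 0.962 and 0.961. Markers of other cells ran from 0.102 (Esam) to 0.835 (Lum), with 0.794 for Lgi4. Without the HS7 libraries the endothelial markers ran from -0.200 (Esam) to 0.962 (Kdr), with Cdh5 next highest at 0.453. The fibroblast markers then ran from 0.454 (Dcn) to 0.945 (Lum), with 0.891 for Pdgfra. Those of Schwann cells ran from 0.169 (Ngfr) to 0.878 (S100b) without HS7. Against this, Tgfa had -0.671, Ereg -0.593 and Nrg1 0.00. Without the HS7 libraries these were -0.04, -0.05 and 0.32, so the negative values rested on the HS7 libraries.

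**Figure D4:**
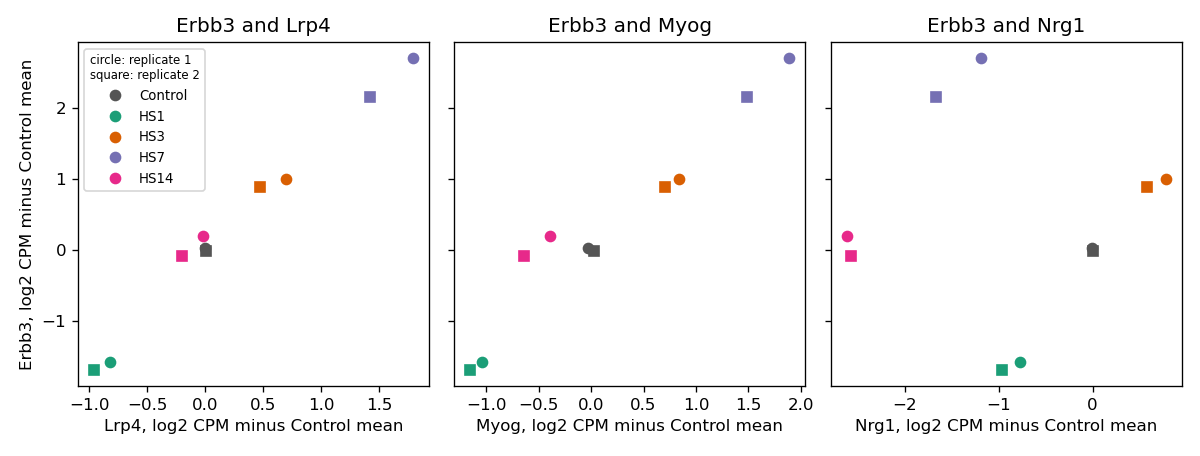
Erbb3 (y axis) against Lrp4, Myog and Nrg1 (x axes) in the 10 libraries, as log2 CPM minus the Control mean; colours are groups, circles and squares replicates 1 and 2. Lrp4 (r = 0.993) and Myog (r = 0.970) run along with Erbb3, while for Nrg1 (r = 0.00) the HS7 and HS14 libraries lie apart from the others.

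Set against Myog and Mymk in the same library, Erbb3 had the wider swing between HS1 and HS7. Myog, the myogenin gene, was at 233 and 243 CPM in Control, 116 and 107 after 1 day, 426 and 387 after 3 days, 883 and 670 after 7 days, and 182 and 153 after 14 days. It fell by 1.10 (SE 0.06) in HS1 (edgeR adjusted p = 1.46e-12) and rose by 1.71 (SE 0.16) in HS7 (edgeR adjusted p = 0.00234). Erbb3 minus Myog within libraries, relative to Control, was -0.55 on day 1, 0.17 on day 3, 0.74 on day 7 and 0.56 on day 14 as log2 group means. Against Mymk, the fusion protein myomaker, it was -1.04, 0.15, 0.65 and 0.12. Erbb3 was thus lower in HS1 and higher in HS7 than either gene would place it, as a description of values that chose it. This did not hold for every differentiation gene, since the HS7 log2 fold changes of Actc1 (2.78) and Tnnt3 (2.52) were as large as that of Erbb3, although neither passed the test (edgeR adjusted p = 0.0358 and 0.0761).

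Only 9 of 18 myogenic markers had a symbol, and Pax7, Myf5 and Myod1 were not analysed here. In this and every marker list below, a gene had a symbol because the study had called it at some time point. Counts of called markers are thus not independent evidence of a change, also where the share of all genes stands beside them. The 9 genes mark differentiation, so they could not check the labelled progenitor identity. These were all detected in every group, and their summed level was 1361 to 1432 CPM in Control, 856 to 976 after 1 day, 3050 to 3178 after 3 days, 5335 to 9004 after 7 days and 953 to 1028 after 14 days. In HS1, 7 of the 9 were called lower, in HS3 all 9 higher, in HS7 2 higher (Myog and Mymx) and in HS14 7 lower, against 10.5%, 7.00%, 16.6% and 17.0% of all genes tested in those directions. The HS7 count was thus near the share of all genes. The other 7 in HS7 had log2 fold changes of 1.82 to 2.78 that missed the threshold in edgeR, whereas all 9 were called with DESeq2, with all 10 libraries fitted together, and without either HS7 library. The fit of all 10 libraries called only 2 lower in HS1, 2 higher in HS3 and 0 in HS14.

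Markers of other cells that can express Erbb3 or share the culture also moved. In time order, 2 of the 3 Schwann cell markers were lower on day 1, 1 was higher on day 3, 1 was higher and 1 lower on day 7, and 2 were higher and 1 lower on day 14. Of all genes, 10.5% were called lower on day 1, 7.00% higher on day 3, 16.6% higher and 16.2% lower on day 7, and 15.8% higher and 17.0% lower on day 14, so 1 call among 3 genes is not read as a result about the list. The 3 Schwann cell markers with a symbol, of 11 listed, summed to 20.3 to 22.3 CPM in Control, 5.05 to 5.07 after 1 day, 37.5 to 40.0 after 3 days, 23.1 to 23.7 after 7 days and 16.5 to 19.4 after 14 days. None of the 3 was at 0 in any group. S100b was 2.7 and 2.0 CPM in HS1 and 34.6 and 33.3 CPM in HS3, with log2 changes against Control of -2.60 and 1.25 (edgeR adjusted p = 3.16e-10 and 5.11e-06). In HS7, where Erbb3 was highest, S100b was at 6.0 and 6.1 CPM with a log2 change of -1.23 (edgeR adjusted p = 7.89e-06). Lgi4 was lower in HS1, at -1.57 (edgeR adjusted p = 2.74e-05), and higher in HS7, at 1.27 (edgeR adjusted p = 3.93e-06), and Ngfr had 1.45 in HS7 (edgeR adjusted p = 0.0185) and rose by 2.46 in HS14 (edgeR adjusted p = 5.91e-08). The HS14 value of Lgi4, 0.56 (edgeR adjusted p = 0.00643), was not called with DESeq2 (adjusted p = 0.0653) or without either Control library or HS14 replicate 1 (edgeR adjusted p of 0.0230 to 0.181). The Ngfr value in HS7 passed without HS7 replicate 2 (edgeR adjusted p = 0.000270). The defining marker Sox10 was not analysed here, and the part of Schwann cells in the Erbb3 levels was not tested.

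The 6 fibroblast markers with a symbol, of 9 listed, summed to 7331 to 7810 CPM in Control, 2401 in both HS1 libraries, 15478 to 19478 after 3 days, 8281 to 8313 after 7 days and 2799 to 2989 after 14 days. All 6 were called lower in HS1, 5 were higher and 1 lower in HS3, 3 were higher and 2 lower in HS7, and 1 was higher and 4 lower in HS14. The shares of all genes were 10.5% lower in HS1, 7.00% higher and 4.51% lower in HS3, 16.6% higher and 16.2% lower in HS7, and 15.8% higher and 17.0% lower in HS14. In HS7, 1 was higher without Control replicate 1 and 0 without Control replicate 2. Pdgfra, the marker of fibro-adipogenic progenitors, was at 147 and 149 CPM in Control, 30.4 and 31.5 after 1 day and 304 and 297 after 3 days, and it was at 62.4 and 62.6 after 7 days. The sum, most of which was Col1a1, was lowest in HS1, highest in HS3 and below Control in HS14. Single markers departed from it. Dcn, the 1 marker called higher in HS14 while 4 were lower, was at 439 and 454 CPM there and at 165 and 160 in Control. Lum had its highest mean in HS7, at 13.0 CPM, with 12.2 in HS3. The 6 endothelial markers, of 8 listed, summed to 1.39 to 1.48 CPM in HS1, 2.37 to 4.85 in Control, 8.39 to 9.35 after 3 days, 9.0 to 11.7 after 7 days and 15.3 to 16.8 after 14 days, and Emcn was at 0 in both HS1 libraries. Of those that could be tested, 1 of 1 was called lower in HS1, 1 of 3 higher in HS3, 4 of 5 higher in HS7 and 5 of 6 higher in HS14, against 10.5%, 7.00%, 16.6% and 15.8% of all genes. In HS7, 1 was called without Control replicate 1, 2 without Control replicate 2, 2 without HS7 replicate 1 and 2 with DESeq2. The HS1 call was lost without Control replicate 2. Kdr, the only endothelial marker tested in every HS group, was not called in HS7 (log2 change 0.28, edgeR adjusted p = 0.512). It was not called in HS14 either (0.30, edgeR adjusted p = 0.414). The other endothelial markers were at 0 to 0.607 CPM in Control and passed the expression filter only through HS groups where they were higher. This favoured calls of higher, so these counts are not read as a result about the list. The part of fibroblasts and endothelial cells in the Erbb3 levels was not tested.

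The day 7 and day 1 cultures were also compared directly for the pathway genes, a comparison added after the values were seen. Of the 10 genes, 2 were called higher in HS7 and 3 lower, against 17.5% and 16.7% of all genes tested, with a median log2 difference of -0.62. The genes called higher were Egr3, by 3.21 (SE 0.29; edgeR adjusted p = 1.58e-06), and Lrp4, by 2.49 (SE 0.13; edgeR adjusted p = 5.81e-06). Chrnd was 3.00 (SE 0.46) higher but missed the threshold (edgeR adjusted p = 0.0277), which it passed with DESeq2 (adjusted p = 2.45e-10), with all 10 libraries fitted together (edgeR adjusted p = 0.000287) and without either HS7 library. Nrg1 differed by -0.57 (edgeR adjusted p = 0.0432), and by -0.84 without HS7 replicate 1 (edgeR adjusted p = 0.00824). The ligand genes Tgfa and Ereg and the AP-1 gene Fosl1 made up the 3 called lower.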

How the data were processed

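RNA was measured in 10 libraries. The authors prepared stranded polyA libraries, checked reads with FastQC 0.11.9, mapped them with STAR and counted genes with featureCounts 1.6.4. The deposited values are raw counts per Ensembl gene, with no normalisation. The submitters' notes name Rnor_6.0 and STAR 2.7 whereas the study's methods name another build, so the build is not settled. Handling of read pairs and multiply mapped reads is not given in the sources used here. The authors called genes with DESeq2.

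Each pair of groups was fitted on its own 4 libraries with edgeR 4.0.16 (R 4.3.3, limma 3.58.1): filterByExpr, TMM, robust quasi-likelihood test, Benjamini-Hochberg adjustment, called at 0.01, with a log2 fold of 1.5 as a second rule. Each SE is the absolute log2 fold change divided by the square root of edgeR's F statistic. It leaves out the degrees of freedom of the test, so it cannot be turned into the p-value given. The fit was tested on simulated data. CPM used TMM over 10 libraries and r used log2 CPM (prior count 2) of 13691 genes kept by filterByExpr. Alternatives were DESeq2 1.42.0, RLE, no filter, all 10 libraries together, a replicate block, an adjusted p under 0.05, plain CPM, Spearman's rho, prior count 0.5, omission of HS7 and of each library.

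Symbols came from the study's table (817 identifiers, 770 with a symbol). No gene of the macrophage (7), epithelial (5), ligand shedding (6) or receptor regulator (13) lists had one. Promoter windows matched 6 of 11 pathway genes, Erbb3 included in the 11. Named genes were Erbb3, every matched receptor and ligand, up to 4 called genes with the largest fold change per other pathway list, the 6 highest and 3 lowest by r, and fixed markers. The members and lists were chosen with earlier results of these data known.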

Additional observations from a re-analysis of the deposited data

Results flagged for a closer look

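The results below were singled out because the HS1 and HS7 cultures moved differently against the same Control. Erbb3 was below Control in both HS1 libraries and above it in both HS7 libraries, a log2 difference between HS7 and HS1 of 4.11, and this difference was not tested because the gene was chosen on it. For 5 other pathway genes the difference itself passed edgeR's quasi-likelihood test between HS7 and HS1. These genes too had been listed for having changed in these data, and the comparison was added after the values were seen. Their p-values are therefore not independent evidence of a difference. Egr3 was 3.21 higher in HS7 than in HS1 on the log2 scale (edgeR adjusted p = 1.58e-06) and Lrp4 2.49 higher (edgeR adjusted p = 5.81e-06). Tgfa differed by -2.48 (edgeR adjusted p = 5.63e-07), Ereg by -3.09 (edgeR adjusted p = 2.65e-05) and Fosl1 by -1.998 (edgeR adjusted p = 5.03e-10). The HS7 libraries of all 5 genes lay outside the range of the HS1 libraries, which is no further evidence for genes that passed this test. The share of all genes without overlap was not counted.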

How the results depend on the processing

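The 10 fold changes of Erbb3 moved by less than their spread under DESeq2, RLE, no filter and the fit of all 10 libraries. Without 1 library at a time, Erbb3 ranged from -1.72 to -1.61 in HS1, 0.89 to 1.01 in HS3, 2.17 to 2.71 in HS7 and -0.10 to 0.19 in HS14 against Control. Pathway calls then ranged from 3 to 4 lower in HS1, 4 to 5 higher in HS3, 2 to 4 higher and 4 to 5 lower in HS7, and 4 to 5 lower in HS14; a lone library was assumed to vary like the others. DESeq2 called 4 lower in HS7 and 4 in HS14. Same-numbered libraries share only a number (correlation of deviations -0.02 to 0.04); with the replicate block Erbb3 was 2.45 in HS7 and the pathway counts against Control were as without it (3 higher and 5 lower in HS7), but Chrnd was called in HS7 against HS1 (2.95; edgeR adjusted p = 0.000582). Of the 6 genes most like Erbb3, 1 was shared under Spearman's rho and 2 without the HS7 libraries; the cause was not tested. With 2 libraries per group, each SE is itself imprecise.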
